A study of Drosophila sechellia with 6 samples.

Results

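The longest coding genes of *Drosophila sechellia* are described here in adult females exposed to octanoic acid (OA), the medium chain fatty acid that makes the fruit of *Morinda citrifolia* toxic to most other flies. The genes were chosen by their identifier, their span and their level. A gene was included if its symbol was a GM number, the authors' test status was OK, its locus spanned at least 30000 bases, its locus was listed for no other entry, and the mean of the OA and control values was at least 5 FPKM, a read count scaled to transcript length and library depth. Of 17275 entries in the deposited table, 60 met this rule. Under the same rule without the span, 8984 coding genes were kept, of which 8924 were shorter. The OA group held 3 libraries of flies given food with 0.7% OA for 24 hr, and the control group held 3 libraries of flies given control food for the same time. Each library was made by poly(A) selection from 10 whole females of strain 14021-0428.25, which were 1 to 4 d old by the labels. Both groups came from this same laboratory strain, and whole flies mix the RNA of every tissue, so fewer cells of a type and less RNA per cell cannot be told apart.

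The span of a gene runs from the first to the last annotated base of its locus and includes the introns. In *Drosophila*, most genes are compact, and the few genes with a long span owe it mainly to long introns. Such introns often carry regulatory elements and other genes nested within them, and many long genes in *D. melanogaster* act in the nervous system, in muscle or in development. An RNA polymerase needs more time to cross a long gene than a short one, but the mature mRNA of both may have the same length, because introns are removed by splicing. FPKM is scaled to the transcript and not to the span.

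The table pairs GM numbers with no gene names, and 0 of the 60 identifiers were found in the RefSeq gene table of a newer assembly of this species. The function of the genes is therefore not given, and genes are placed by their scaffold and position in the Ensembl assembly the authors used. The authors deposited 1 FPKM value per group and gene. How much the libraries of a group varied is therefore unknown, depth per gene is unknown, and no test was made of any difference below. The change of a gene is given as log2 of the OA value over the control value, after 1 FPKM was added to both. This makes the changes of low genes smaller. Because the mean level was part of the rule, levels are a description of the choice.

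Coding entries with a long locus were more numerous than the 60 genes kept. The table lists 419 GM entries with a locus of at least 30000 bases. Of these, 309 share their locus with another entry and fall into 110 distinct loci. The 16344 distinct loci of the table never overlapped each other, so a locus that several entries share is a merged region, and the span of each gene in it is not known from this table. The other 110 entries had a locus of their own. Of these, 27 were not tested by the authors and had a mean of at most 1.43 FPKM. A further 23 were tested and lay between 1.55 and 4.48 FPKM. The remaining 60 are the genes described, and 0 other entries overlap their spans. They are thus long genes without an annotated gene nested in an intron.

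Spans of the 60 genes ranged from 30323 to 100526 bases, with a median of 40788 bases, against a median of 1522 bases for the shorter genes. Their spans fell between 30000 and 40000 bases in 27 genes, between 40000 and 60000 bases in 22 genes and above 60000 bases in 11 genes. The longest gene lies on scaffold 0 from 15503949 to 15604474 and was at 8.16 FPKM in OA and 5.65 FPKM in control. The next longest, on scaffold 31 from 340973 to 441209, spans 100237 bases and was at 39.9 FPKM in OA and 30.1 FPKM in control. Both were higher in OA. The third in length, on scaffold 1 from 10665140 to 10761632, was at 11.5 FPKM in OA and 12.8 FPKM in control, and was thus slightly lower in OA. At the lower bound, the shortest genes kept spanned 30323, 30371 and 30424 bases and had log2 changes of -0.18, 0.43 and 0.30. The longest genes left out spanned 29972, 29930 and 29749 bases and had log2 changes of 0.26, 0.28 and 0.16. The genes on both sides of this bound thus overlapped in their changes.

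Most of the longest genes were expressed at moderate levels. The median of the mean level was 14.9 FPKM, within a range of 5.14 to 243 FPKM, against a median of 34.6 FPKM for the shorter genes. The median group value was 16.0 FPKM in OA and 13.9 FPKM in control. Over all coding entries with a locus of their own, whatever their status and level, the median of the mean level was 5.14 FPKM at spans of 30000 to 40000 bases, 5.32 FPKM at 40000 to 60000 bases and 9.42 FPKM in the 15 entries of 60000 bases or more, against 17.5 FPKM at 2000 to 5000 bases and 2.67 FPKM below 500 bases. The median level was thus lower in each of these long classes than at 2000 to 5000 bases. The share of entries that reached 5 FPKM was 50.9% at 30000 to 40000 bases, 52.4% at 40000 to 60000 bases and 73.3% at 60000 bases or more, against 69.8% at 2000 to 5000 bases, so the share was not lower in the longest class.

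The most abundant of the 60 genes lies on scaffold 16 from 431453 to 500594 and was at 271 FPKM in OA and 215 FPKM in control. It was followed by a gene on scaffold 81 from 89199 to 120955, at 122 FPKM in OA and 129 FPKM in control. A gene on scaffold 1 from 1283033 to 1321619 was at 118 FPKM in OA and 95.0 FPKM in control. These abundant genes did not share a direction, and the first and the last of them were higher in OA. At the level bound, the lowest genes kept had means of 5.14, 5.17 and 5.20 FPKM, with log2 changes of 0.18, 0.50 and 0.16. The highest genes left out had means of 4.48, 4.35 and 3.60 FPKM, with log2 changes of 0.24, 0.25 and 0.15.

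Most of the longest coding genes were slightly higher in OA. The OA value was above the control value in 46 of the 60 genes (76.7%), against 58.3% of all coding genes under the same filters. Their median log2 change was 0.22, a fold of 1.17, and the middle part of the genes, from the lower to the upper quartile, lay between 0.01 and 0.34. The median over all 8984 coding genes was 0.06. When every change was centred on that median, 40 of the 60 genes stayed above 0 and the median of the 60 was 0.16. Summed over the 60 genes, the values were 1741 FPKM in OA and 1539 FPKM in control, a ratio of 1.13. The same ratio was 0.990 over the GM entries and 0.903 over all entries of the table.

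**Figure D1:**
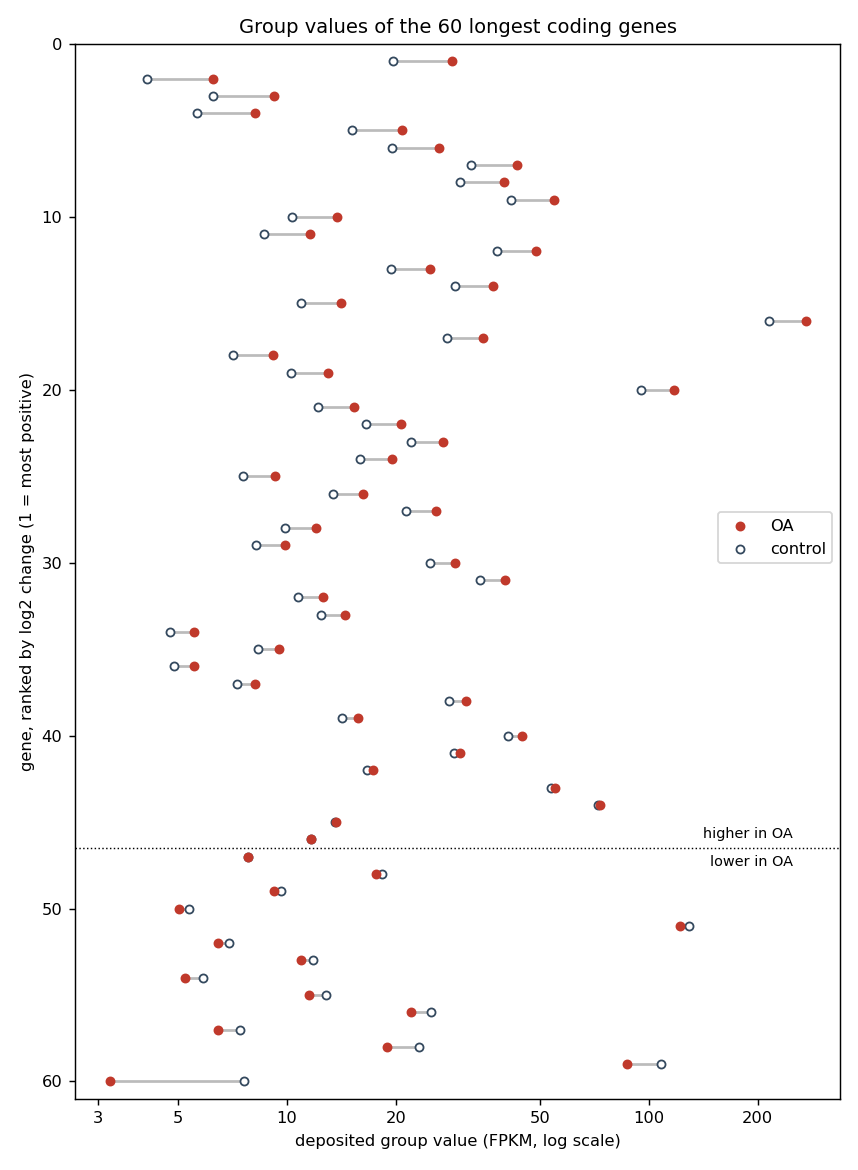
Deposited FPKM values of the 60 longest coding genes on a log scale, 1 gene per line, with filled points for OA and open points for control. Genes are ranked by log2 change. The 46 genes above the dotted line were higher in OA, and the 14 below it were lower in OA, with the gene at the bottom standing apart from the others.

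Few of these differences were large. At least 1.5-fold higher values in OA were found in 0 of the 60 genes, against 3.86% of all coding genes, and at least 1.5-fold lower values in 1 of them, against 4.04%. At a bound of 1.25-fold, chosen after the values were seen, 18 genes (30%) were higher in OA, against 16.7% of all coding genes, and 1 gene was lower, against 11.6%. Among 60 genes, counts of 0 and 1 at 1.5-fold are too small to be read against their backgrounds. The share at least 1.25-fold higher was above that of all coding genes. It was close to the 27.5% of shorter genes of at least 5000 bases, weighted to the levels of the 60 genes.

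The most positive log2 changes were those of 2 genes of unlike level. GM23344, on scaffold 18 from 201530 to 240777, was at 28.7 FPKM in OA and 19.7 FPKM in control, a log2 change of 0.52. GM17531, on scaffold 24 from 711157 to 775615, was at 6.23 FPKM in OA and 4.10 FPKM in control, a log2 change of 0.50. Its ratio is just above 1.5 without the added 1 FPKM, and with a pseudocount of 0.1 it passed that bound. A gene on scaffold 1 from 8079319 to 8121327 followed, at 9.20 FPKM in OA and 6.25 FPKM in control. The longest gene of all, on scaffold 0, held rank 4 with a log2 change of 0.46. In rank 5, a gene on scaffold 3 from 3015222 to 3045592 was at 20.8 FPKM in OA and 15.1 FPKM in control. In rank 6, a gene on scaffold 4 from 2633938 to 2693645 was at 26.3 FPKM in OA and 19.5 FPKM in control. The genes with the most positive changes thus covered spans from 30371 to 100526 bases, nearly the whole range of the set.

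At the other end, the gene with the most negative change stood apart. GM15513, on scaffold 9 from 2925932 to 2969735, was at 3.24 FPKM in OA and 7.61 FPKM in control, a log2 change of -1.02. It was among the lowest genes of the set, with a mean of 5.43 FPKM, where the number of reads behind a value is unknown. GM18854, on scaffold 10 from 2400830 to 2443324, was at 87.0 FPKM in OA and 108 FPKM in control, a log2 change of -0.31. A gene on scaffold 4 from 4954801 to 5027115 was at 18.8 FPKM in OA and 23.2 FPKM in control, a log2 change of -0.29. The next in order lies on scaffold 6 from 3825868 to 3856190 and was at 6.44 FPKM in OA and 7.43 FPKM in control. It is also the shortest gene of the set. A gene of 86120 bases on scaffold 0 from 6410941 to 6497060 was at 22.0 FPKM in OA and 25.0 FPKM in control. Apart from GM15513, the genes lower in OA had log2 changes no further from 0 than -0.31, while the positive changes reached 0.52.

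The small positive change was not particular to the longest genes. Across all coding genes under the same filters, the median log2 change was -0.05 below 500 bases, -0.02 at 500 to 1000 bases, 0.02 at 1000 to 2000 bases and 0.09 at 2000 to 5000 bases. It was 0.20 at 5000 to 10000 bases, 0.20 at 10000 to 20000 bases and 0.23 at 20000 to 30000 bases. Within the longest genes it was 0.18 at 30000 to 40000 bases, 0.29 at 40000 to 60000 bases and 0.16 above 60000 bases. The share of genes higher in OA also differed with span. It was 45.1% below 500 bases, 66.7% at 2000 to 5000 bases, 81.8% at 5000 to 10000 bases and 88.1% at 20000 to 30000 bases. Among the longest genes it was 81.5% at 30000 to 40000 bases (22 of 27), 81.8% at 40000 to 60000 bases (18 of 22) and 54.5% above 60000 bases (6 of 11). The median change thus differed mostly between genes below and above about 5000 bases, and the medians of the longest genes, from 0.16 to 0.29, lay around those of genes of 5000 to 30000 bases. The share higher in OA did so up to 60000 bases. Above 60000 bases it was 54.5%, but 11 genes are too few to be read against the 58.3% of all coding genes. In the 17 genes of at least 50000 bases the share was 70.6%. The change is described here by span. Whether the span itself, the length of the mRNA or another property of these genes lies behind it was not tested. The length of the mRNA could not be described, since the table gives no transcript length.

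**Figure D2:**
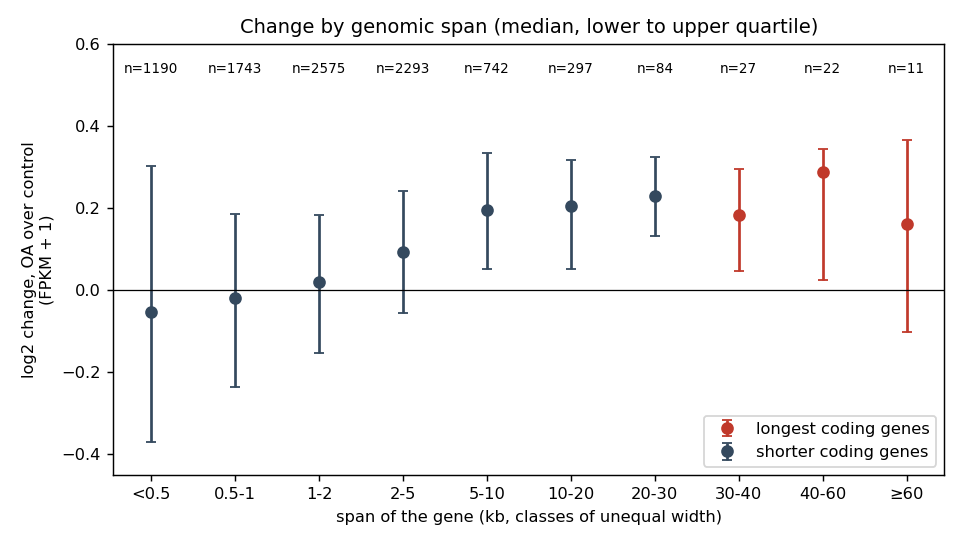
Log2 change of OA over control (FPKM + 1) by span class in kb, with points for the median over genes, bars from the lower to the upper quartile and the number of genes above each class. The medians are near 0 below 2 kb, 0.20 at 5 to 10 kb, and 0.18, 0.29 and 0.16 in the 3 classes of the longest genes.

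Spread over genes also changed with span. The log2 changes of the longest genes had a standard deviation over genes of 0.26, against 0.46 for the shorter genes and 0.54 for the 5508 genes under 2000 bases. Among the 1123 shorter genes of at least 5000 bases it was 0.24. Large differences in either direction were concentrated in short genes. Below 500 bases, 12.9% of the genes were at least 1.5-fold higher in OA and 14.3% at least 1.5-fold lower, against 2.02% and 0.539% at 5000 to 10000 bases. Large differences were thus rare in other genes of at least 5000 bases as well. These classes were not matched for level, and the number of reads behind each value is unknown. What goes with the wider spread in short genes was not tested.

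Because the longest genes had lower levels than the others, they were set against shorter genes of the same mean level. Genes were sorted into strata 0.5 wide on the log2 scale of the mean FPKM, and the difference of the medians in each stratum was averaged with the number of long genes as weight. The longest genes exceeded all shorter genes of the same level by 0.12 on the log2 scale. Of the 60 genes, 40 lay above the median of the shorter genes in their stratum and 20 below it. Above the upper quartile of those shorter genes lay 25 of the 60, and below the lower quartile lay 6. In the stratum from 32.0 to 45.3 FPKM, all 6 long genes were higher in OA, with a median of 0.35, against a median of 0.09 for 1123 shorter genes. In the stratum from 5.66 to 8.00 FPKM, 3 of 6 long genes were higher in OA, with a median of 0.07, against 0.12 for 471 shorter genes. The difference was thus not present at every level.

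Against the longer part of the shorter genes, the difference was near 0. Set against shorter genes of at least 5000 bases at the same level, a comparison added after the values were seen, the longest genes differed by -0.019 on the log2 scale. Of the 60 genes, 30 lay above the median of those genes in their stratum and 30 below it. The share higher in OA was 76.7% in the longest genes, against 84.4% in genes of at least 5000 bases weighted to the same levels. The stratum from 181 to 256 FPKM held just 19 such genes, and without it the difference was -0.023. Against genes under 2000 bases at the same level the difference was 0.20. Whether the shares higher in OA differ beyond the variation among so few genes was not tested. At a given level, the median change of the longest genes was thus about that of other genes of at least 5000 bases. Above the upper quartile of those genes in their stratum lay 17 of the 60, and below the lower quartile lay 19.

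**Figure D3:**
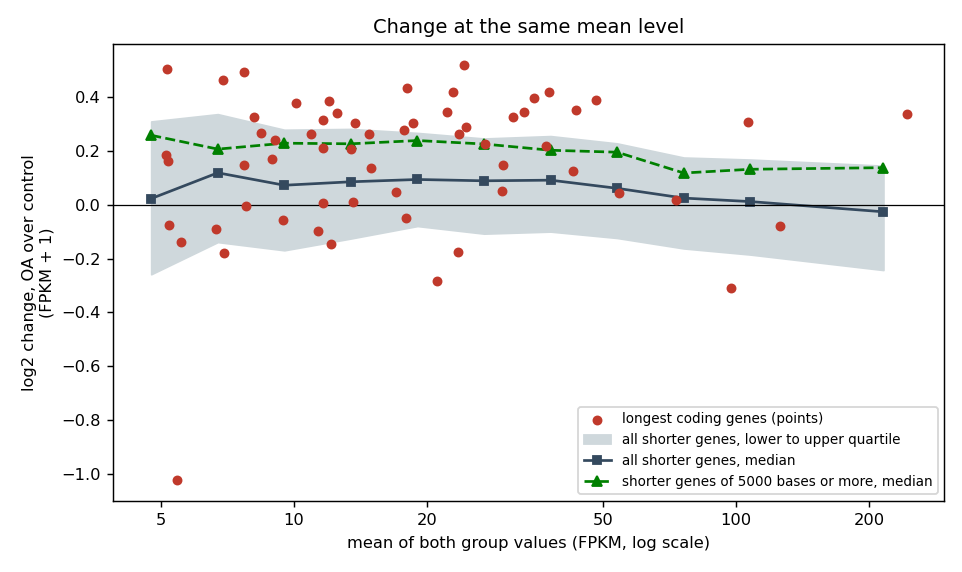
Log2 change of OA over control (FPKM + 1) against the mean of both group values on a log scale. Points are the 60 longest genes, squares and the shaded band are the median and the quartiles of all shorter genes in each stratum, and triangles are the median of shorter genes of at least 5000 bases. Of the 60 points, 40 lie above the median of all shorter genes in their stratum, and 30 above that of genes of at least 5000 bases.

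Among the 60 genes, the change differed between classes of level without a steady order, and its correlations with level and span were weak. The genes with a mean of 5 to 10 FPKM had a median log2 change of 0.16, and 10 of 17 were higher in OA. The median was 0.26 at 10 to 20 FPKM, where 16 of 19 genes were higher, and 0.29 at 20 to 40 FPKM, where 13 of 15 were higher. Above 40 FPKM it was 0.13, and 7 of 9 genes were higher. Genes of at least 5000 bases but under 30000 bases had medians of 0.21, 0.24, 0.21 and 0.14 in the same 4 classes. The lower changes at 5 to 10 FPKM were thus not seen in them. Of these genes, 83.3%, 87.5%, 83.4% and 75.9% were higher in OA in the 4 classes. Among all shorter genes the shares were 58.8%, 63.3%, 62.2% and 53.5%. Over the 60 genes, the correlation of span with change had a Pearson r of -0.02 and a Spearman rho of 0.05, and that of the log2 mean level with change an r of 0.13 and a rho of 0.15. These are descriptions across genes of the same libraries, and the genes are not independent replicates. The correlation of span with level was also near 0, with a rho of 0.01. Over the 8924 shorter genes, the rho of span with change was 0.23.

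**Figure D4:**
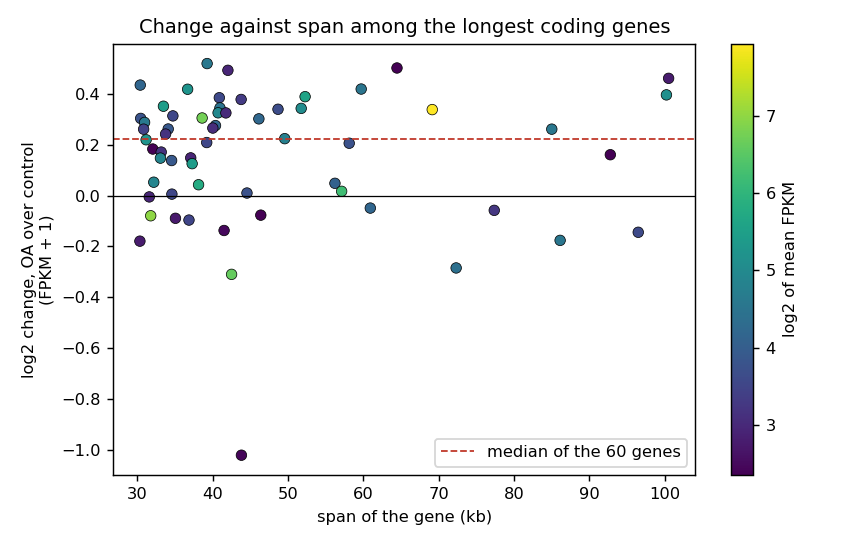
Log2 change of OA over control (FPKM + 1) against span in kb for the 60 longest genes, coloured by the log2 of the mean FPKM, with a dashed line at their median of 0.22. Changes on both sides of 0 occur over the whole range of spans, and the Spearman rho over the genes is 0.05.

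The 60 genes lie on 31 scaffolds, and 19 of these hold 1 of them. Scaffold 0 holds 8, scaffold 1 holds 7, scaffold 4 holds 5 and scaffold 10 holds 4. Scaffolds were not assigned to chromosomes. On scaffold 0, 5 of 8 genes were higher in OA, against 59.4% of 1675 shorter genes of that scaffold. The median log2 change was 0.03 against 0.07. On scaffold 1, 6 of 7 were higher, against 57.2% of 1229 shorter genes, with medians of 0.30 and 0.05. On scaffold 4, 4 of 5 were higher, against 57.8% of the shorter genes, with medians of 0.29 and 0.06. On scaffold 10, 3 of 4 were higher, against 62.2%, with medians of 0.11 and 0.12. These shorter genes were matched for neither span nor level. The medians of the long genes thus lay between 0.03 and 0.30 on these 4 scaffolds, and those of the shorter genes between 0.05 and 0.12.

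The longest genes also lay further from their neighbours. The median distance to the next locus on either side was 3983 bases for the longest genes (116 distances). It was 946 bases for the shorter genes and 2036 bases for shorter genes of at least 5000 bases. The rule itself bears on these distances, because genes that share a locus were left out. Among GM entries with a locus of at least 30000 bases, this removed 309 of 419. The neighbouring loci were then compared with the long genes they flank, where the neighbour was a coding gene under the same filters. This gave 69 pairs around 53 of the 60 genes. None of these neighbours was itself one of the 60 genes. The neighbours had a median log2 change of 0.06, against 0.22 for the long genes in the same pairs, and the long gene had the higher change in 43 of 69 pairs (62.3%). The signs of the changes were the same in 35 of the 69 pairs. The neighbours had a median span of 1503 bases. In the 12 pairs whose neighbour spanned at least 5000 bases, the medians were 0.15 for the long genes and 0.15 for the neighbours. These pairs lay around 11 of the long genes, and the signs were the same in 6 pairs. No background was computed for the counts of pairs with the same sign. In the 57 pairs with a shorter neighbour, the medians were 0.26 for the long genes and 0.04 for the neighbours.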

How the data were processed

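RNA-seq of poly(A) RNA was used from 3 OA and 3 control libraries, grouped by the diet label. The authors aligned reads with Bowtie2 and ran Cuffdiff with geometric normalization and with correction for length and bias. Versions are not given in the sources used here. The deposited FPKM values are 1 per gene and group. The deposited fold changes, test statistics, p-values and q-values hold the authors' own comparison and were not used, and the status column was used only as a filter. Starts are counted from 0 in the file and were printed counted from 1.

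The genes, strata and bounds were chosen with earlier results of these data known. With 1 value per group, no SD or interval over libraries and no test was possible. Genes named by identifier are the 2 with the highest and the 2 with the lowest change. Others, the longest, the most abundant and the next in order of change, are given by position. Alternatives changed the pseudocount, the level and span bounds, the scaling, the status and locus filters, and the stratum width. The stratum step was tested on simulated data in which the changes of shorter genes depended on level and not on span. That run thus does not bear on differences by span among shorter genes. Matplotlib 3.10.9, SciPy 1.17.1, pandas 2.3.3 and NumPy 2.4.6 were run in Python 3.11.15.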

Additional observations from a re-analysis of the deposited data

How the results depend on the processing

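No paired analysis was possible because each group has a single deposited value per gene, and fits without a library could not be made for the same reason. Coding genes inside the long spans could not be described because 0 entries lie there, so the alternatives planned for them were not run.

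The median log2 change of the longest genes lay between 0.16 and 0.26 and the share higher in OA between 66.7% and 83.7% over 11 alternatives each. The median difference from shorter genes of the same level was 0.12. It was -0.019 when just shorter genes of at least 5000 bases were used, an alternative chosen after seeing the data. Under the other 14 it was positive. The comparison with genes under 2000 bases, among these, gave 0.20, while the rest kept shorter genes of every span. Asking for no overlapping entry kept the same 60 genes, so its value of 0.12 was fixed in advance. The difference in absolute change, 0.024, became -0.0025 against genes under 2000 bases, also chosen after seeing the data. The number of genes became 144 with spans of at least 20000 bases, 17 at 50000 bases and 185 with repeated loci kept, by construction. Genes at least 1.5-fold higher became 1 with a pseudocount of 0.1, with a mean of at least 2 FPKM and with spans of at least 20000 bases, and 11 with repeated loci kept. Genes at least 1.5-fold lower became 0 with a mean of at least 10 FPKM or spans of at least 50000 bases, and 4 with repeated loci kept.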

Other observations

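Coding entries with a long locus outside the set of 60 were also mostly higher in OA. Among entries whose locus of at least 30000 bases is shared with another entry, 125 had status OK and a mean of at least 5 FPKM. Of these, 96 (76.8%) were higher in OA and their median log2 change was 0.19. The share was 58.3% in all coding genes kept by the filters of the 60 genes without the span bound. It was 82.4% in the shorter of those genes that spanned at least 5000 bases. The own spans of the 125 entries are unknown, because the locus is a merged region, and reads of genes that overlap could be split between them. Of the 23 tested genes with a locus of their own and a mean under 5 FPKM, 20 were higher in OA, with a median log2 change of 0.25. No share over other genes under 5 FPKM was computed, so this count has no background. Of the 27 genes the authors did not test, 10 were listed at 0 in both groups.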
